A study of Mus musculus with 18 samples.

Results

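The 9 genes described here form the core of the Sonic hedgehog (Shh) pathway: the ligand Shh, the receptor Ptch1, the transducer Smo, the transcription factors Gli1, Gli2 and Gli3, the ligand-binding antagonist Hhip, and the co-receptors Boc and Gas1. They were picked by gene symbol for these roles and not for any measured value, and they are 9 of the 55487 genes in the count files. The RNA came from mouse forelimb buds. Mutants were Esco2fl/fl;Prrx1-CreTg/0, with the Prrx1-Cre transgene, and controls were Esco2fl/fl with no Cre. Buds of both genotypes were taken at embryonic day (E) 9.5, at E10.5 and at E11.5. There were 3 libraries in each of the 6 groups. Both genotypes carried Esco2 alleles flanked by loxP sites, and Esco2 encodes an acetyltransferase of the cohesin complex. Cre was expressed from a Prrx1 regulatory element, which is active in limb mesenchyme and not in the ectoderm, so part of each mutant bud kept an intact Esco2. The controls lacked Cre, so an effect of Cre itself and one of Esco2 loss cannot be told apart. The labels do not tie the 3 libraries of a group to separate embryos. Each p-value thus sets a difference only against the spread between these libraries, and that spread may be technical.

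In the limb bud, Shh is secreted by a small group of posterior mesenchymal cells, the zone of polarizing activity, and patterns the digits. Shh binds Ptch1 together with Boc, Gas1 or Cdon. Bound Ptch1 no longer holds back Smo, and Smo signalling turns Gli2 and Gli3 from repressors into activators. Gli1, Ptch1 and Hhip are themselves switched on by the pathway, and Ptch1 and Hhip feed back on it by taking up ligand, so their transcripts are widely used as readouts of hedgehog signalling. Transcription of Boc, Cdon and Gas1 is known to be held down where signalling is strong.

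Depth was 36390557 to 53505350, 44402251 to 48147568 and 38805623 to 50213799 counts per mutant library from the earliest stage to the latest, against 47740565 to 56230058, 44992366 to 49489072 and 35034237 to 41248298 counts per control library in the same order of stages. Levels are CPM, each gene's count relative to its scaled library size, and changes are log2 mutant over control ± SE from edgeR's quasi-likelihood fit. A gene rose or fell where its adjusted p (Benjamini-Hochberg over the 20118 genes tested) was under 0.05. Esco2 itself had log2 changes of -0.60 ± 0.14 at E9.5, -0.53 ± 0.14 at E10.5 and -0.26 ± 0.14 at E11.5, with adjusted p of 0.162, 0.0200 and 0.238 in that order. Its count covers every exon, also any that Cre leaves in place. Control E9.5 replicate 1 stood apart: Ptch1, Smo, Gli1, Gli2, Gli3, Hhip and Boc lay there at 0.417 to 0.593 of the mean of the other E9.5 controls, while Shh lay at 1.83 and Gas1 at 1.17 times that mean. Mutant E10.5 replicate 3 stood apart by its erythroid genes, at 20400 CPM summed against 6560 and 10300 CPM in the other E10.5 mutants. Counts of changed members are also given without both of these libraries.

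Transcripts that mark other cell types moved with genotype. Over all tested genes, 7.30% rose and 6.63% fell at E10.5, and 8.02% rose and 9.52% fell at E11.5. Of 12 limb mesenchyme markers, 0 rose and 3 fell at E10.5, and 0 rose and 5 fell at E11.5. Their summed level was 1040 to 1260 CPM in E10.5 mutants against 1810 to 1870 CPM in E10.5 controls, and 1040 to 1230 CPM in E11.5 mutants against 1930 to 2010 CPM in E11.5 controls. Of 16 surface ectoderm markers, 14 rose at E10.5 (985 to 1390 CPM summed in mutants, 469 to 670 CPM in controls) and 12 at E11.5 (930 to 1210 CPM in mutants, 477 to 798 CPM in controls). Of 12 apical ridge genes, 8 rose at E10.5 (393 to 514 CPM in mutants, 142 to 181 CPM in controls) and 6 at E11.5 (218 to 390 CPM in mutants, 122 to 129 CPM in controls). Of 9 chondrogenic genes, 1 rose and 5 fell at E10.5 (465 to 493 CPM in mutants, 807 to 980 CPM in controls), and 7 fell at E11.5 (278 to 363 CPM in mutants, 1450 to 1640 CPM in controls). So in every mutant library from E10.5 on the sums of mesenchyme and cartilage genes were below those of every control, and the sums of ectoderm and ridge genes above. Erythroid markers rose at E10.5 in 7 of 11 tested cases (6560 to 20400 CPM in mutants, 3040 to 6210 CPM in controls) and in 0 at E11.5 (4030 to 9810 CPM in mutants, 3680 to 5330 CPM in controls; 0 with an unadjusted p under 0.05). Macrophage markers rose in 4 of 10 cases at E10.5 (42.2 to 72.4 CPM in mutants, 21.5 to 27.5 CPM in controls) and in 7 of 10 at E11.5 (103 to 225 CPM in mutants, 46.3 to 58.3 CPM in controls). Muscle precursor markers rose in 2 of 8 cases at E10.5 (179 to 281 CPM in mutants, 123 to 145 CPM in controls) and in 3 of 8 at E11.5 (335 to 499 CPM in mutants, 194 to 264 CPM in controls). Blood, macrophage and muscle genes thus moved upward with genotype at one or both stages. Endothelial markers rose in 4 of 12 cases at E10.5, and 2 rose and 1 fell at E11.5. Neural and Schwann cell markers rose in 4 of 11 tested cases at E10.5 and 1 of 11 at E11.5. The 1 endothelial fall and the 1 neural rise at E11.5 were near the shares over all tested genes. The part of these shifts in the results on hedgehog genes was not tested, and in whole buds fewer cells of a type and less RNA per cell cannot be told apart.

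**Figure D1:**
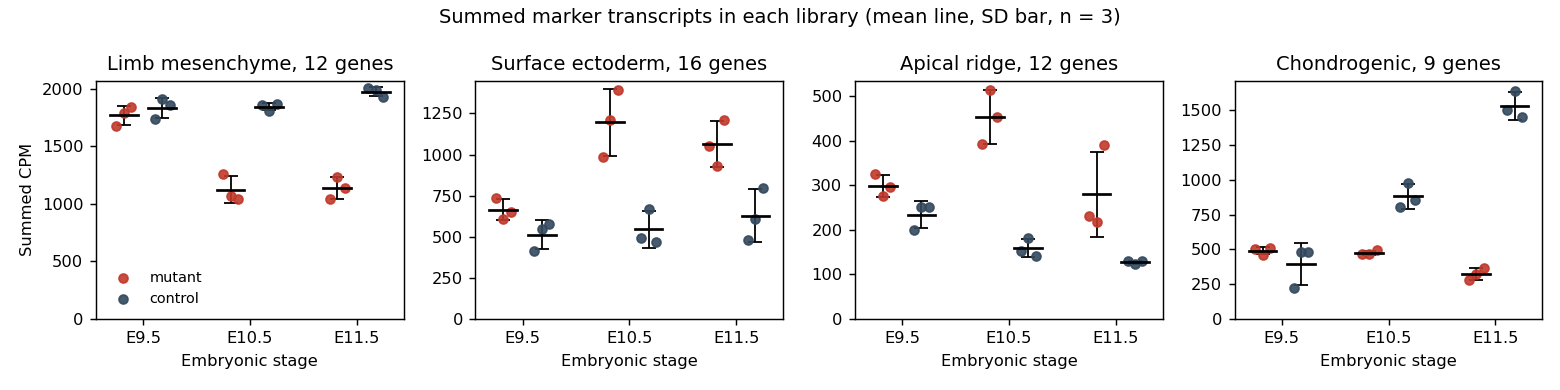
Summed CPM of the marker genes of 4 tissues in each library, mutants (red) left of controls (dark) at each stage, with the mean of 3 libraries as a line and the SD as a bar. Limb mesenchyme and chondrogenic sums are lower, and surface ectoderm and apical ridge sums higher, in every mutant library than in every control library at E10.5 and E11.5.

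Shh (ENSMUSG00000002633.4, mm10 chr5:28456815-28467256, minus strand) encodes the ligand. At E9.5 it was at 1.02, 0.794 and 1.05 CPM in the mutants and at 2.02, 1.12 and 1.09 CPM in the controls, from 38 to 40 and 53 to 81 read pairs per library. All 3 mutant libraries lay below all 3 controls, by little in the case of the closest pair. At E10.5, when the polarizing region is active, Shh was at 12.8, 8.94 and 10.9 CPM in the mutants and at 18.1, 19.9 and 15.6 CPM in the controls. Again no mutant reached the lowest control, and the mutant mean was 0.609 of the control mean. The exact two-sided permutation test gave p = 0.1 at E9.5 and at E10.5 (adjusted 0.2 each, 3 against 3), which is the smallest p that 20 arrangements allow, so this design cannot bring either below 0.05. In edgeR's fit over all libraries Shh had a log2 change of -0.55 ± 0.86 at E9.5 (adjusted p = 0.797) and -0.72 ± 0.76 at E10.5 (adjusted p = 0.583), with a 95% interval of -2.34 to 0.90 at E10.5. That fit shares 1 spread over all stages, and Shh was most variable at E11.5. When E10.5 was fitted alone, the fall passed the threshold (adjusted p = 0.00367), in a fit where 34.6% of all tested genes passed. It did not pass in the fit without control E11.5 replicate 1 and mutant E11.5 replicate 3, the E11.5 libraries with the most Shh. There the log2 change at E10.5 was -0.714 ± 0.315 (adjusted p = 0.158).

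At E11.5 Shh differed more within a genotype than between genotypes. It was at 0.633, 2.06 and 7.49 CPM in the mutants (26, 107 and 306 read pairs) and at 7.33, 0.791 and 0.572 CPM in the controls (313, 30 and 23 read pairs). The highest library exceeded the lowest 11.8-fold among mutants and 12.8-fold among controls. The groups overlapped fully, with an exact permutation p of 0.7 and a log2 change of 0.21 ± 0.79 (95% interval -1.47 to 1.90, adjusted p = 0.883). A single library decided the sign and the call: without control E11.5 replicate 1 the log2 change was 2.31 (adjusted p = 0.0345), without mutant E11.5 replicate 3 it was -1.08, and without control E11.5 replicate 2 or 3 it was -0.23 or -0.27. The high mutant and the high control share the first number, 79, of the code in their labels, and the sources used here do not say what this number stands for. These are the only E11.5 libraries with that number. The plot of Shh by library shows both as the upper points at E11.5. Over all stages, with labels permuted within stage, the exact p was 0.62 (8000 arrangements, adjusted 0.7).

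**Figure D2:**
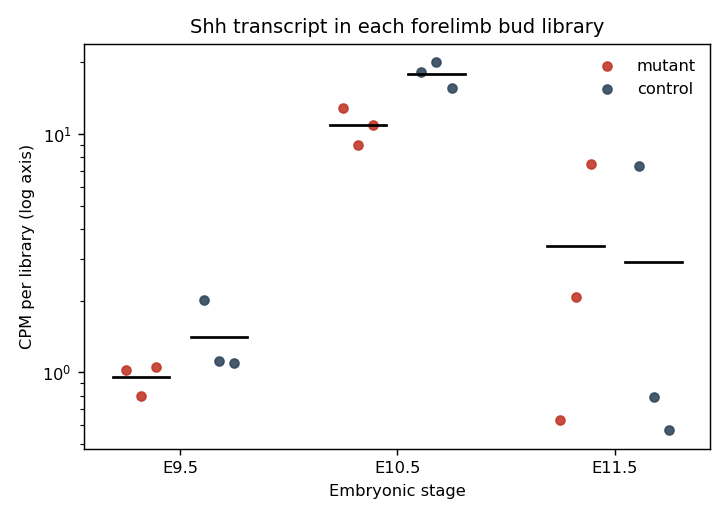
Shh transcript in each library (CPM, log axis), mutants (red) left of controls (dark) at each stage, with a line at the mean of 3 libraries. At E10.5 the mutants lie between 8.94 and 12.8 CPM and the controls between 15.6 and 19.9 CPM, and at E11.5 both genotypes spread from under 1 to over 7 CPM.

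Some defining genes of other hedgehog sources were at or near 0. Noto, a notochord gene, had 0 counts in all 18 libraries. Foxa2, which marks the notochord, floor plate and gut, reached at most 0.33 CPM, and Cdx2, a gut gene, at most 0.467 CPM. The 9 genes of this list summed to 6.44 to 8.64 CPM in E10.5 mutants against 1.82 to 2.20 CPM in E10.5 controls. At E11.5 they summed to 4.08 to 7.15 CPM in mutants against 2.18 to 3.20 CPM in controls. The highest single values were 7.84 CPM for Foxj1, a ciliogenesis gene, and 4.80 CPM for Nkx2-9, a floor plate gene with 0 counts in 8 libraries. Those 8 included every E9.5 and E10.5 control. Of the 5 genes of this list that could be tested, 1 rose at E9.5, 1 at E10.5 and 2 at E11.5, and 0 fell. Over all tested genes, 0.184% passed at E9.5, 7.30% rose at E10.5 and 8.02% rose at E11.5. The filter on low counts had left out Foxa2, Noto, Nkx2-2 and Cldn18. With 0 counts in every E9.5 and E10.5 control, Nkx2-9 could not fall at those stages. The counts of this list thus cannot be weighed against these shares. Nkx2-9 rose at each stage (log2 changes of 6.725, 10.438 and 6.773, adjusted p = 0.0184, 8.23e-06 and 4.61e-05). At E9.5 and E10.5 its change was over controls with 0 counts, so the size is not well defined. Cdx2 rose at E11.5 (log2 change 3.096, adjusted p = 0.0212). The part of these sources in the hedgehog values was not tested.

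The transcriptional targets were the members that rose, and they did so at E11.5. At that stage 3 of 9 members rose, where 8.02% of all tested genes rose, and they were Hhip, Gli1 and Ptch1. Hhip (ENSMUSG00000064325.4, chr8:79965851-80058006, minus strand), the antagonist at the cell surface, was at 10.47, 11.02 and 14.12 CPM in E11.5 mutants and at 3.40, 4.66 and 5.62 CPM in E11.5 controls. All 3 mutants lay well above the highest control. The log2 change was 1.38 ± 0.29 (2.60-fold, adjusted p = 0.00357), and it passed without any single library of the 18 (log2 change 1.21 to 1.56, adjusted p at most 0.0216).

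Gli1 (ENSMUSG00000025407.7, chr10:127329882-127341974, minus strand), the activator that depends on signalling for its own transcription, was at 117, 133 and 121 CPM in E11.5 mutants and at 67.5, 82.9 and 67.6 CPM in E11.5 controls. The groups did not overlap, and the log2 change was 0.77 ± 0.26 (1.70-fold, adjusted p = 0.0493). Ptch1 (ENSMUSG00000021466.12, chr13:63508328-63573598, minus strand), the receptor, was at 127, 192 and 178 CPM in E11.5 mutants and at 117, 92.7 and 85.1 CPM in E11.5 controls. The lowest mutant was just above the highest control, and the log2 change was 0.75 ± 0.24 (1.69-fold, adjusted p = 0.0412). Both calls lay close to the threshold. Ptch1 was lost, with adjusted p between 0.0505 and 0.156, without control E10.5 replicate 1 or 2, control E11.5 replicate 2 or 3, mutant E9.5 replicate 2 or 3, any E10.5 mutant, or mutant E11.5 replicate 2 or 3. Gli1 was lost, with adjusted p between 0.0510 and 0.152, without control E9.5 replicate 2, mutant E9.5 replicate 1, or any 1 library of E10.5 or E11.5. The log2 changes then stayed between 0.63 and 0.91 for Ptch1 and between 0.71 and 0.87 for Gli1.

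The same 3 genes did not pass at the earlier stages. At E10.5 Gli1 was at 107, 121 and 116 CPM in the mutants and at 88.4, 71.3 and 96.3 CPM in the controls. Every mutant was above every control, and the log2 change of 0.43 ± 0.26 missed the threshold (adjusted p = 0.298). Ptch1 averaged 136 ± 7.46 CPM in E10.5 mutants and 127 ± 23.5 CPM in E10.5 controls (SD, n = 3 each), and Hhip averaged 6.84 ± 0.70 CPM in E10.5 mutants and 6.08 ± 0.847 CPM in E10.5 controls. Both overlapped between genotypes, with 95% intervals of the log2 change of -0.40 to 0.62 for Ptch1 and -0.44 to 0.78 for Hhip. The change of the mutant effect between E10.5 and E11.5 was 1.21 ± 0.41 for Hhip, 0.64 ± 0.34 for Ptch1 and 0.34 ± 0.36 for Gli1 on the log2 scale, and none passed (adjusted p = 0.363, 0.636 and 0.870), so the effects at these stages were not shown to differ.

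Library by library at E11.5, target levels and ligand levels were alike in order for some genes and not for others. Hhip in mutants and Ptch1 in controls ran in the same order as Shh, Hhip in controls ran in the opposite order, and the other series were mixed. The control with 7.33 CPM of Shh had the lowest Hhip of its group, at 3.40 CPM, 67.5 CPM of Gli1, and the highest Ptch1, at 117 CPM. The mutant with 0.633 CPM of Shh, the lowest of its group, had 10.47 CPM of Hhip, 117 CPM of Gli1 and 127 CPM of Ptch1, each the lowest among the mutants and above every control. Between the 1 mutant and the 1 control with code number 79, which had nearly equal Shh, Hhip was at 14.1 CPM in the mutant and 3.40 CPM in the control. Gli1 was at 121 CPM in that mutant and 67.5 CPM in that control, and Ptch1 at 178 CPM in that mutant and 117 CPM in that control. Without both of these libraries 0 members passed at E11.5, at 2 against 2 (8.23% of all tested genes passed), with log2 changes of 1.07 for Hhip (adjusted p = 0.0766), 0.74 for Gli1 (adjusted p = 0.215) and 0.85 for Ptch1 (adjusted p = 0.107).

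**Figure D3:**
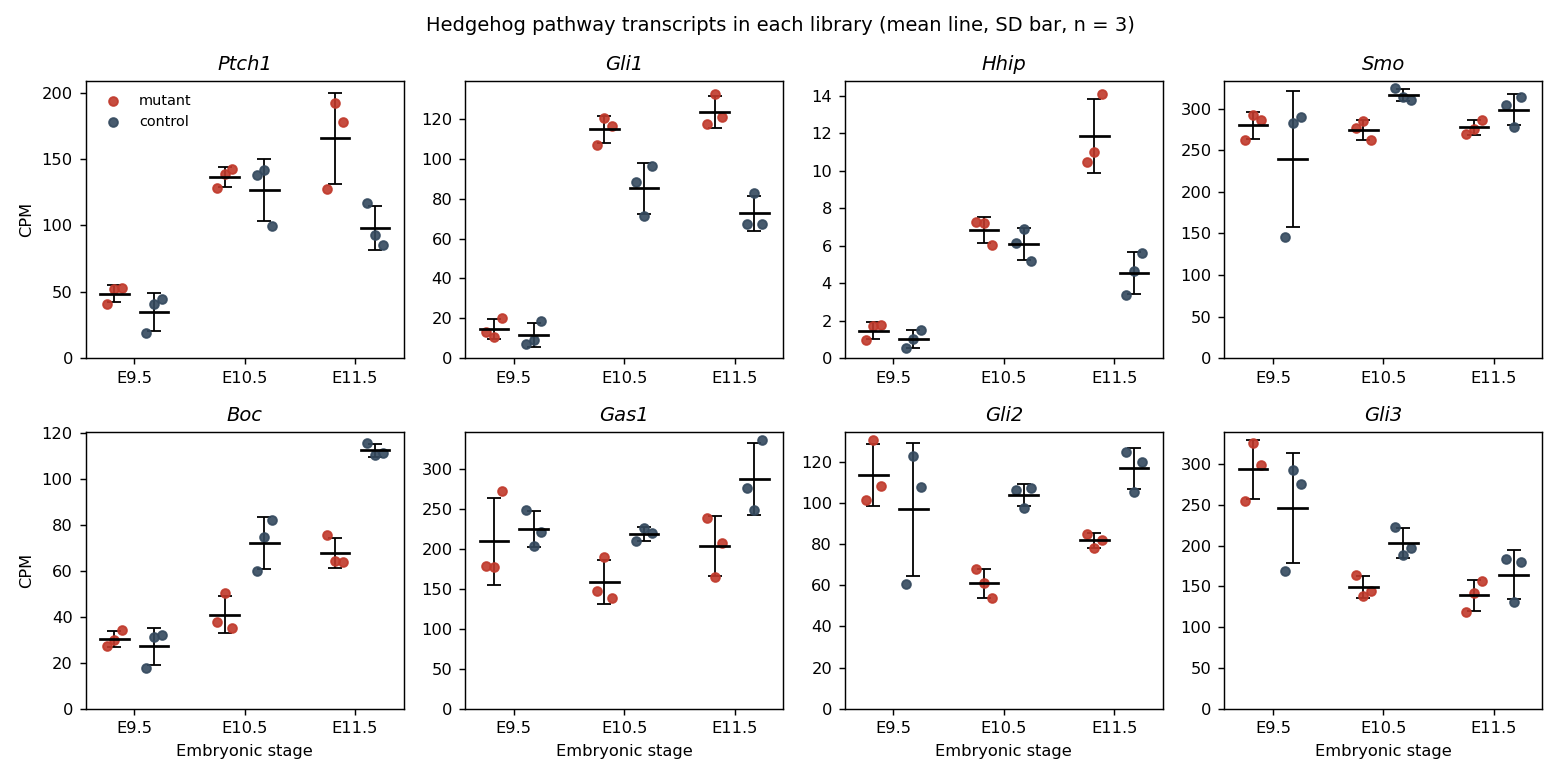
CPM of the other 8 hedgehog genes in each library, mutants (red) left of controls (dark) at each stage, with the mean of 3 libraries as a line and the SD as a bar. Ptch1, Gli1 and Hhip are higher in every E11.5 mutant than in every E11.5 control, and Boc and Gli2 are lower in every mutant than in every control at E10.5 and E11.5.

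Of the co-receptors, Boc fell and Gas1 did not pass. Boc (ENSMUSG00000022687.12, chr16:44485049-44558897, minus strand), an immunoglobulin-family protein that presents ligand to Ptch1, was at 37.7, 50.3 and 35.1 CPM in E10.5 mutants and at 60.0, 74.8 and 82.4 CPM in E10.5 controls. At E11.5 it was at 75.6, 64.3 and 64.0 CPM in the mutants and at 116, 111 and 112 CPM in the controls. The genotypes did not overlap at either stage. Boc fell by 0.82 ± 0.19 on the log2 scale at E10.5 (adjusted p = 0.00720) and by 0.73 ± 0.19 at E11.5 (adjusted p = 0.0114). With each of the 18 libraries left out in turn the E10.5 fall passed, and the E11.5 fall was lost without mutant E11.5 replicate 3 (log2 change -0.68, adjusted p = 0.0568). Without both E11.5 libraries of code number 79 the log2 change was -0.66 (adjusted p = 0.115), and between those 2 libraries Boc was at 64.0 CPM in the mutant and 116 CPM in the control.

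Gas1 (ENSMUSG00000052957.8, chr13:60174405-60177365, minus strand), a lipid-anchored co-receptor, was at 147, 190 and 139 CPM in E10.5 mutants and at 210, 227 and 221 CPM in E10.5 controls. At E11.5 it was at 240, 165 and 207 CPM in the mutants and at 277, 249 and 337 CPM in the controls. Mutants were below controls without overlap at both stages, and neither difference passed, with log2 changes of -0.46 ± 0.18 (adjusted p = 0.0909) and -0.49 ± 0.18 (adjusted p = 0.0611). Smo (ENSMUSG00000001761.7, chr6:29735503-29761365, plus strand), the transducer, was at 276, 285 and 262 CPM in E10.5 mutants and at 324, 313 and 311 CPM in E10.5 controls. These groups did not overlap either, but the difference was small (log2 change -0.20 ± 0.17, adjusted p = 0.466). At E11.5 Smo overlapped between genotypes, and its log2 change of -0.11 had a 95% interval of -0.47 to 0.25.

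Of the factors that carry the signal to DNA, Gli2 fell. Gli2 (ENSMUSG00000048402.14, chr1:118834132-119053619, minus strand), the main activator, was at 67.8, 61.4 and 53.9 CPM in E10.5 mutants and at 106, 97.7 and 107 CPM in E10.5 controls. The groups were far apart, and Gli2 fell by 0.77 ± 0.18 on the log2 scale (0.588-fold, adjusted p = 0.00893), a call lost without mutant E10.5 replicate 3 (log2 change -0.68, adjusted p = 0.0570). At E11.5 it was at 84.9, 78.1 and 82.2 CPM in the mutants and at 125, 106 and 120 CPM in the controls. These did not overlap, and the log2 change of -0.51 ± 0.18 missed the threshold (adjusted p = 0.0580). Gli3 (ENSMUSG00000021318.15, chr13:15463235-15730026, plus strand), the main repressor and the counterpart of Shh in the anterior bud, was at 164, 139 and 145 CPM in E10.5 mutants and at 223, 188 and 197 CPM in E10.5 controls. No mutant reached a control, and the difference did not pass (log2 change -0.44 ± 0.18, adjusted p = 0.115). At E11.5 Gli3 overlapped between genotypes (log2 change -0.24 ± 0.18, adjusted p = 0.389).

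Counted together, 0 of 9 members rose and 2 fell at E10.5, where 7.30% of all tested genes rose and 6.63% fell. At E11.5 3 rose and 1 fell, and 9.52% of all tested genes fell. Without control E9.5 replicate 1 and mutant E10.5 replicate 3 together, 2 members changed at E10.5 (18.7% of all tested genes did) and 5 changed at E11.5 (28.7% did). The median log2 change of the 9 was -0.44 at E10.5 and -0.11 at E11.5, against 0.018 and 0.014 over all tested genes. At E10.5, 1 member lay above the controls without overlap and 6 below, where 23.0% of all tested genes lay above and 23.1% below (46.1% together). At E11.5, 3 lay above and 3 below, where 19.8% of all tested genes lay above and 20.7% below (40.5% together). When E10.5 was fitted alone, 7 members passed: besides Gli2 and Boc these were Shh, Smo, Gli1, Gli3 and Gas1 (adjusted p of the added 5 at most 0.0174). In that fit 34.6% of the 18313 genes tested passed. The E10.5 libraries with label code number 41, 2 of each genotype, averaged 64.6 CPM of Gli2 in mutants and 102 CPM in controls, and 44.0 CPM of Boc in mutants and 67.4 CPM in controls.

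**Figure D4:**
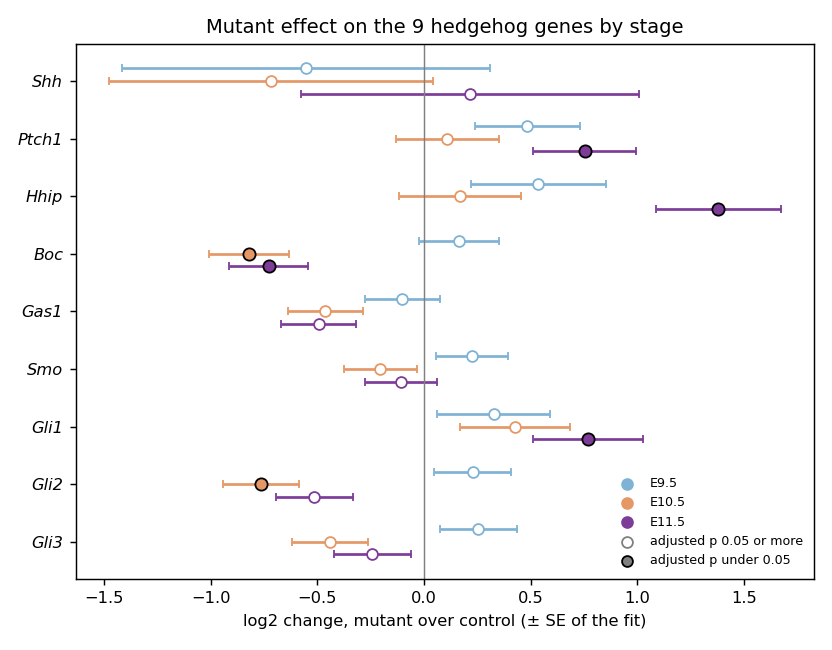
Log2 change, mutant over control, of the 9 hedgehog genes at each stage, with the SE of the fit as a bar. Filled points had an adjusted p under 0.05: Gli2 and Boc on the left at E10.5, Boc on the left and Ptch1, Gli1 and Hhip on the right at E11.5.

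At E9.5 no member was shown to change. The 95% intervals of the log2 change were wide for some, at -2.39 to 1.29 for Shh and -0.13 to 1.21 for Hhip. 0 of 9 passed edgeR's test (0.184% of all tested genes did), and DESeq2 and limma-voom called 0 as well. An unadjusted p under 0.05 was found for 0 of the 9 and for 1996 of all 20118 tested genes. Adjusted p ran from 0.497 for Ptch1 to 0.816 for Gas1. Ptch1 was at 41.1, 51.8 and 53.1 CPM in the mutants and at 18.7, 41.0 and 44.5 CPM in the controls. Its log2 change of 0.48 ± 0.25 shrank to 0.19 without control E9.5 replicate 1, the library that stands apart and holds the low value. Without that library Smo, Gli2 and Boc had changes of -0.03, -0.01 and -0.06, against 0.23, 0.23 and 0.16 with it. Only Shh did not overlap between genotypes at E9.5, where 8.87% of all tested genes did not overlap. Control E9.5 replicate 1 held its highest value, 2.02 CPM. The other E9.5 controls had 1.12 and 1.09 CPM of Shh, and the highest E9.5 mutant 1.05 CPM.

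The ligand and its target genes rose between E9.5 and E10.5 in both genotypes. In mutants 4 of 9 members rose over this day, where 9.63% of all tested genes rose, and in controls 5 of 9, where 15.0% rose. Shh rose by 3.51 ± 0.88 on the log2 scale in mutants (adjusted p = 0.0136) and by 3.67 ± 0.86 in controls (adjusted p = 0.00578). The rise in mutants was 3.56 (adjusted p = 0.0518) without mutant E9.5 replicate 1 and 3.38 (adjusted p = 0.0743) without mutant E9.5 replicate 2. Gli1 rose by 2.98 ± 0.28 in mutants and 2.88 ± 0.28 in controls, Hhip by 2.21 ± 0.31 in mutants and 2.57 ± 0.32 in controls, and Ptch1 by 1.49 ± 0.25 in mutants and 1.86 ± 0.25 in controls (adjusted p at most 0.000566 in each case). Boc rose in controls (1.41 ± 0.19, adjusted p = 4.95e-05), while in mutants its change was 0.43 ± 0.19 (adjusted p = 0.148). Gli2 and Gli3 fell in mutants, by 0.90 ± 0.18 and 0.98 ± 0.18 (adjusted p = 0.00276 and 0.00141), where 4.40% of all tested genes fell. In controls their changes were 0.10 ± 0.18 and -0.28 ± 0.18 (adjusted p = 0.726 and 0.263).

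Whether these courses differed between genotypes is the test of the change in mutant effect, and no member passed it in edgeR's fit. For E10.5 against E9.5 it was -0.99 ± 0.25 for Gli2 (adjusted p = 0.0507), -0.98 ± 0.26 for Boc (adjusted p = 0.0590) and -0.70 ± 0.25 for Gli3 (adjusted p = 0.139). Here 3 of 9 had an unadjusted p under 0.05, as did 4422 of all 20118 tested genes. DESeq2 called 2 members and limma-voom called 1, and 2.22% of all tested genes passed in edgeR's fit. For E11.5 against E9.5 Boc had -0.89 ± 0.26 (adjusted p = 0.0515). There 2 of 9 had an unadjusted p under 0.05, as did 5140 of all 20118 tested genes. DESeq2 called 2 members and limma-voom called 0, and 6.42% of all tested genes passed in edgeR's fit. For E11.5 against E10.5, 1 of 9 had an unadjusted p under 0.05, as did 1705 of all 20118 tested genes. DESeq2 and limma-voom called 0 members, and 0.0746% of all tested genes passed in edgeR's fit.

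From E10.5 to E11.5 Boc was the only member to rise in either genotype, by 0.73 ± 0.19 in mutants (adjusted p = 0.0433; 2.00% of all tested genes rose) and by 0.64 ± 0.19 in controls (adjusted p = 0.0384; 6.60% rose). The rise in mutants was lost (adjusted p from 0.0524 to 0.222) without mutant E10.5 replicate 1 or 3, control E10.5 replicate 2 or 3, or any 1 of the E9.5 mutants or E11.5 libraries. The rise in controls was lost (adjusted p from 0.0505 to 0.194) without any 1 control of E10.5 or E11.5, mutant E9.5 replicate 2 or mutant E11.5 replicate 2. Shh had a log2 change of -1.69 ± 0.79 in mutants (adjusted p = 0.380) and -2.62 ± 0.81 in controls (adjusted p = 0.0570) over this interval.

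Per transcript length, in TPM, Gas1 had the highest mean of the members and Smo the second in all 6 groups. The libraries of Gas1 and Smo overlapped in E10.5 mutants, and those of Smo and Gli3 in E9.5 controls. At E11.5 Gas1 averaged 236 ± 38.9 TPM in mutants and 365 ± 52.1 TPM in controls, and Smo 169 ± 6.08 TPM in mutants and 200 ± 10.4 TPM in controls (SD, n = 3 each). In E11.5 mutants the order went on with Gli1 (85.0 ± 7.39 TPM), Boc (52.4 ± 4.53), Gli3 (49.8 ± 6.98), Gli2 (40.8 ± 0.938), Ptch1 (40.2 ± 8.89), Hhip (4.48 ± 0.715) and Shh (4.08 ± 4.30). Neighbours overlapped between Boc and Gli3, between Gli2 and Ptch1 and between Hhip and Shh. In E11.5 controls it went on with Boc (95.4 ± 3.09 TPM), Gli3 (64.6 ± 11.3), Gli2 (64.0 ± 5.33), Gli1 (54.8 ± 7.16), Ptch1 (26.1 ± 4.69), Shh (3.86 ± 5.13) and Hhip (1.89 ± 0.44). There the overlaps were between Gli3 and Gli2, between Gli2 and Gli1 and between Shh and Hhip. The mean of Gli1 was thus above those of Gli2 and Gli3 in E11.5 mutants and below them in E11.5 controls, where Gli1 overlapped with both. In control E11.5 replicate 2 Gli1 (63.1 TPM) was above Gli2 (58.4 TPM) and Gli3 (51.7 TPM).

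The promoters of Hhip and Ptch1, which rose together at E11.5, and of Gli2, which fell at E10.5, are given as the 250 bases before the annotated start (RefSeq, GRCm38.p6, minus strand, written 5′ to 3′), at chr8:80058009-80058258, chr13:63565736-63565985 and chr1:119053620-119053869. The Ptch1 window lies inside the span counted for that gene, before a RefSeq start within it. Capitals mark 9 bases with the fewest mismatches, on either strand, to the GLI consensus GACCACCCA. Other stretches of a window may have as few mismatches.
Hhip: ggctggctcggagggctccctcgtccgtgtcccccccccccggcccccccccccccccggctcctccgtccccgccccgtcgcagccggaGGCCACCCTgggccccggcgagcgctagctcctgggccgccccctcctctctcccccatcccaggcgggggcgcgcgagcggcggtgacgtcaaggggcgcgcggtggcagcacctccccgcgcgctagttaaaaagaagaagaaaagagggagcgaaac
Ptch1: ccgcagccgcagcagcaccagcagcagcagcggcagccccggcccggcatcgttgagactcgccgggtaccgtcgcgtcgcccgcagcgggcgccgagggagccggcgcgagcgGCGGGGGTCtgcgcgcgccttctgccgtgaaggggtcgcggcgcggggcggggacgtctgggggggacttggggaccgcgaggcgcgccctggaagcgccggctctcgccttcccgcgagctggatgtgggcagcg
Gli2: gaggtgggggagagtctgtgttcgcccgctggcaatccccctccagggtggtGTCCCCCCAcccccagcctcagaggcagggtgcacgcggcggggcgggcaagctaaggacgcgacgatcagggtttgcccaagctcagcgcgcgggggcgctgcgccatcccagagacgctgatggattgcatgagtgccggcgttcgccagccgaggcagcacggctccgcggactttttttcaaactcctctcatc
The closest stretch had 2 mismatches in Hhip, 3 in Ptch1 and 2 in Gli2. No window of the 6 members found in the RefSeq table (these 3, Smo, Gli3 and Gas1) held the consensus or a copy with 1 mismatch, while 0.225% of 32851 promoter windows held it and 5.79% held it with at most 1 mismatch. At most 2 mismatches were found in 51.8% of windows.

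Among genes with a mean log2 CPM of at least 1, 11796 in all, Ptch1 and Hhip were each other's near matches over the 18 libraries. Pearson's r was 0.962 between them, with Hhip first for Ptch1 and Ptch1 second for Hhip. Gli1 and Hhip shared the same best match, Tmem30b, at r = 0.974 and 0.963. The best match was Gabpb1 for Shh (0.882), Irf2bpl for Boc (0.981), Marcks for Gas1 (0.911), Kntc1 for Smo (0.981), Frmd6 for Gli2 (0.942) and Rps6ka3 for Gli3 (0.962). The libraries share stage, genotype and depth, so these are descriptions only.

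Another 39 listed genes of the pathway (further ligands and their release, co-receptors, cilium and kinase genes) held more genes that fell than genes that rose. At E10.5 2 of 39 rose and 12 fell (7.30% and 6.63% of all tested genes), and at E11.5 0 rose and 11 fell (8.02% and 9.52% of all tested genes), with median log2 changes of -0.27 and -0.25 against 0.018 and 0.014 over all tested genes. At E11.5 22 of the 39 had an unadjusted p under 0.05 in either direction, as did 6146 of all 20118 tested genes. DESeq2 called 2 of the 39 higher and 15 lower, and 2044 genes higher and 2331 lower in all. From limma-voom came 0 of the 39 higher and 11 lower, and 1577 genes higher and 2132 lower in all. Cdon, the co-receptor closest to Boc, was at 60.8, 59.6 and 48.6 CPM in E10.5 mutants against 164, 153 and 152 CPM in E10.5 controls, and at 90.4, 82.4 and 93.3 CPM in E11.5 mutants against 162, 133 and 156 CPM in E11.5 controls. It fell by 1.47 ± 0.19 at E10.5 (adjusted p = 6.7e-05) and by 0.76 ± 0.19 at E11.5 (adjusted p = 0.00855). Mutants and controls did not overlap at either stage, and without both E11.5 libraries of code number 79 the E11.5 fall was lost (log2 change -0.74, adjusted p = 0.0736).

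Also past the threshold were Mgrn1, a ubiquitin ligase that lowers Smo (log2 changes of -0.47 ± 0.09 at E10.5 and -0.55 ± 0.09 at E11.5, adjusted p = 0.00214 and 0.000574), Kif3a, a motor of the cilium (-0.44 ± 0.11 and -0.57 ± 0.11, adjusted p = 0.00944 and 0.00129), Scube1, a secreted relative of the proteins that release Shh (-0.69 ± 0.15 at E10.5, adjusted p = 0.00607), and Gpc3, a glypican that competes with Ptch1 for ligand (-0.64 ± 0.11 at E11.5, adjusted p = 0.00106). The ligand gene Dhh (2.16 ± 0.54, adjusted p = 0.0123) and the kinase gene Grk2 (0.25 ± 0.08, adjusted p = 0.0423) were the ones that rose at E10.5, and both are named after their values were seen. At E10.5 the 12 falls became 7 without control E10.5 replicate 3, 5 without mutant E10.5 replicate 2, 6 without mutant E10.5 replicate 3 and 19 without control E9.5 replicate 1. The 2 rises there became 0 without mutant E10.5 replicate 3 or control E10.5 replicate 1. They became 1 without mutant E10.5 replicate 1 or 2, mutant E11.5 replicate 2, control E10.5 replicate 2 or 3, any E9.5 mutant or any E11.5 control. At E11.5 the 11 falls became 7 and 4 without control E11.5 replicates 2 and 3, 6 and 5 without mutant E11.5 replicates 1 and 3, and 20 without control E9.5 replicate 1. The 0 rises there became 3 and 1 without control E9.5 replicates 1 and 2.

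Genes known to act upstream of Shh in the limb also moved in both directions. Of 29, 5 rose and 6 fell at E10.5 (7.30% and 6.63% of all tested genes), and 6 rose and 3 fell at E11.5 (8.02% and 9.52% of all tested genes), with median log2 changes of -0.12 and -0.33. Etv4, an ETS factor downstream of FGF that keeps Shh out of the anterior bud, rose by 1.01 ± 0.14 at E10.5 (adjusted p = 0.00018) and by 1.27 ± 0.14 at E11.5 (adjusted p = 2.1e-05). The ridge genes Sp6 at E10.5 (1.62 ± 0.26, adjusted p = 0.000467) and Sp8 and Fgf8 at E11.5 (1.85 ± 0.28 and 2.12 ± 0.35, adjusted p = 0.000272 and 0.000593) rose as well, and Fgf8, Sp6 and Sp8 are also among the ridge markers counted above. Tbx5, the forelimb T-box factor, fell by 1.42 ± 0.14 at E10.5 (adjusted p = 3.83e-06) and by 1.91 ± 0.14 at E11.5 (adjusted p = 4.13e-07), and Alx4, an anterior repressor of Shh, fell by 1.84 ± 0.26 at E10.5 (adjusted p = 0.000175). The 6 falls at E10.5 became 3 without mutant E10.5 replicate 3, and the 3 falls at E11.5 became 6 without control E9.5 replicate 1 or mutant E11.5 replicate 2.

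Genes reported to respond to Shh or to mark its domain or the opposite side in the limb moved in both directions. Of 26, 2 rose and 11 fell at E10.5, and 4 rose and 12 fell at E11.5, where the shares of all tested genes were again 7.30% and 6.63%, and 8.02% and 9.52%, with median log2 changes of -0.18 and -0.76. Osr1, a zinc-finger factor of the bud, was at 16.6, 14.5 and 12.1 CPM in E10.5 mutants against 44.5, 48.8 and 43.5 CPM in E10.5 controls, and fell by 1.66 ± 0.21 at E10.5 (adjusted p = 5.16e-05) and by 2.01 ± 0.21 at E11.5 (adjusted p = 9.39e-06). Its relative Osr2 fell by 4.05 ± 0.37 and the matricellular gene Smoc1 by 2.51 ± 0.24 at E10.5 (adjusted p = 2.26e-06 and 2.76e-06). Cntfr, a cytokine receptor gene, fell by 1.48 ± 0.27 at E10.5 (adjusted p = 0.00148) and by 1.77 ± 0.27 at E11.5 (adjusted p = 0.00033), and Pax9, a paired-box factor, fell by 3.36 ± 0.44 at E11.5 (adjusted p = 7.88e-05). Dlk1, which encodes a membrane protein related to Notch ligands, fell by 1.29 ± 0.21 at E11.5 (adjusted p = 0.000442). The 2 rises at E10.5 were Bmp7 (0.47, adjusted p = 0.00449) and Mycn (0.58, adjusted p = 0.0285). The 4 rises at E11.5 were Bmp7 (0.36, adjusted p = 0.0196), Mycn (0.71, adjusted p = 0.00746), Cdk6 (0.88, adjusted p = 0.00193) and Bmp4 (0.55, adjusted p = 0.00525). These genes that rose are named after their values were seen. The 11 falls at E10.5 became 7 without control E10.5 replicate 1 and 6 without mutant E10.5 replicate 3, and the 2 rises there became 1 without any control of that stage or without mutant E10.5 replicate 1 or 3. At E9.5 0 genes passed in each of the 3 lists with edgeR, DESeq2 or limma-voom. An unadjusted p under 0.05 was found for 2 of 39 other pathway genes, 1 of 29 upstream genes and 4 of 26 response genes. Of all 20118 tested genes, 1996 had one.

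**Figure D5:**
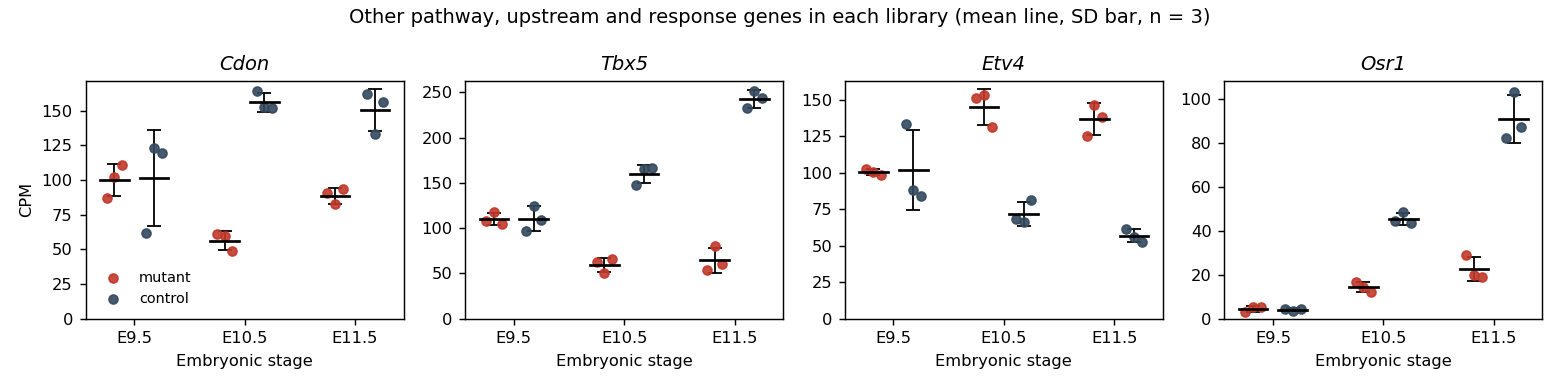
CPM of Cdon, Tbx5, Etv4 and Osr1 in each library, mutants (red) left of controls (dark) at each stage, with the mean of 3 libraries as a line and the SD as a bar. Etv4 is higher, and Cdon, Tbx5 and Osr1 are lower, in every mutant than in every control at E10.5 and E11.5.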

How the data were processed

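Forelimb bud RNA was read as pairs. Per the file headers, the deposited values are counts of reverse-stranded read pairs over all exons of each gene, made by the authors with featureCounts 1.6.4 and the GENCODE vM22 annotation on mm10. The submitters' processing notes also name cutadapt, STAR and limma, with settings not given in the sources used here. A deposited table of log2 FPKM values, for which no normalization is described in these sources, served only as an alternative.

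Symbols came from GENCODE M21 and matched 99.83% of identifiers. In R 4.3.3 with edgeR 4.0.16, genes were filtered by filterByExpr, and library sizes were scaled with TMM factors (trimmed means of M values). A robust quasi-likelihood model with the 6 groups, tested on simulated data, was fitted to all 18 libraries (common biological coefficient of variation 0.231, 12 residual degrees of freedom). At this depth the spread between libraries limits the precision, except for the lowest levels of Shh and Hhip, where counting error adds to it. TPM used the gene lengths in the files. Alternatives were DESeq2 1.42.0, limma-voom (limma 3.58.1), other scaling, no filter, a replicate block, a length correction, each stage alone and left-out libraries. Leaving out both E11.5 libraries with code number 79 was chosen after seeing the data.

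The members and gene lists were chosen with earlier results of these data known. Named list genes were up to 4 per list and stage with the smallest adjusted p past the threshold, with 1 gene of the lists not reported here, and likeness names the closest genes, predicted genes left out. Stranded counting separates Shh and Gli1 from antisense genes that overlap them. It does not separate genes on the same strand. Such genes overlap the spans of Ptch1 (A930032L01Rik), Smo (Gm13717), Gli3 (Gm48343) and Boc (Mir3081), and their part in the counts was not tested. No replicates held identical counts. 0 columns of samples outside the series were used.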

Additional observations from a re-analysis of the deposited data

Results flagged for a closer look

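The mutant effect differed between stages, by edgeR's test of the difference with Benjamini-Hochberg adjustment, for these listed genes and for none of the 9 hedgehog members. All values are log2 effects at the later stage minus those at E9.5. Among pathway genes, Cdon had -1.45 at E10.5 and Mgrn1 had -0.52 at E10.5 and -0.59 at E11.5. Among genes upstream of Shh, Alx4 had -1.86 at E10.5. Tbx5 had -1.41 at E10.5 and -1.91 at E11.5. Etv4 had 1.03 at E10.5 and 1.28 at E11.5, and Fgf8 had 1.98 at E10.5 and 2.30 at E11.5. Among response genes, Osr1 had -1.79 at E10.5 and -2.15 at E11.5, Smoc1 had -2.12 at E10.5, Osr2 had -3.94 at E10.5, Cntfr had -1.60 at E11.5 and Dlk1 had -1.01 at E11.5. The remaining listed genes that passed, named after their values were seen, all did so at E11.5. They were Scube2 with -3.48 among pathway genes, and among response genes Bmp4 with 0.64, Prdm1 with -1.17, Foxf2 with -2.48, Sall1 with -1.32 and Rasgef1b with -0.85.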

How the results depend on the processing

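Of 2547 pairs of a member result and an alternative, 2370 kept direction and side of the threshold, 61 lost a call, 73 gained one and 43 changed sign. The cause of these changes was not tested, apart from the smaller number of samples where libraries were left out.

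Mutants against controls at E9.5 gave 37 genes, against 132 with DESeq2 and 5 with the stage alone. The stage alone called 7 members and 6337 genes at E10.5, against 2 and 2802. Of the 4 members called at E11.5, no filter left 2, and the set without both libraries of code number 79 left 0 with 1715 genes, against 3529. Without the 2 libraries that stand apart 5913 genes were called at E11.5.
For the change of effect between E9.5 and E10.5, 0 members were called, against 2 with DESeq2, 1 with limma-voom, 2 with the length correction (2 with the replicate block added), 1 without the libraries that stand apart and 2 in the authors' log2 FPKM. Between E9.5 and E11.5, 0 were called, against 2 with DESeq2, 1 with the length correction (1 with the block added), 2 without the libraries that stand apart and 1 in log2 FPKM.
Between E10.5 and E11.5 in mutants, limma-voom called 3 members and no filter 0, against 1. In controls, DESeq2, limma-voom, the length correction, that correction with the block and log2 FPKM each called 2, and no filter 0, against 1.

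Log2 changes near 0 changed sign. Without the libraries that stand apart, Smo had -0.028, Gli2 -0.014 and Boc -0.055 at E9.5. In the same set, Boc had -0.003 for E11.5 against E10.5 in mutant effect, Smo -0.012 over that interval in mutants, and Gli2 -0.157 and Gas1 0.037 for E10.5 against E9.5 in controls. With the length correction (and with the block added) Ptch1 had 0.041 (0.036) for the E10.5 against E9.5 effect and Gas1 0.019 (0.017) for the E11.5 against E10.5 effect. Smo then had -0.002 (-0.004) for E11.5 against E10.5 in mutants, and Gli2 -0.070 (-0.067) for E10.5 against E9.5 in controls. In log2 FPKM the Gas1 effect was 0.006, and without the libraries of code number 79 Smo had -0.002.

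With 1 of the 18 libraries left out in turn, 30 to 63 genes were called at E9.5 (52 higher and 11 lower without control E9.5 replicate 2, against 36 and 1), and Smo ran from -0.028 to 0.387, Gli2 from -0.014 to 0.433, Boc from -0.055 to 0.30 and Gas1 from -0.336 to 0.006. At E10.5 these were 1 to 4 members and 1473 to 5333 genes, and Ptch1 ran from -0.037 to 0.198. At E11.5 they were 1 to 5 members and 2188 to 5976 genes, and Shh ran from -1.084 to 2.310. For the change of effect between E9.5 and E10.5 there were 0 to 3 members called and Gli1 ran from -0.403 to 0.400. Between E9.5 and E11.5 there were 0 to 2, Gli1 ran from -0.063 to 0.740 and Shh from -0.529 to 2.862. Between E10.5 and E11.5 Gas1 ran from -0.162 to 0.119, Boc from -0.012 to 0.264 and Shh from -0.370 to 3.027. In mutants, Smo ran from -0.075 to 0.003 for E10.5 against E9.5 and from -0.017 to 0.043 for E11.5 against E10.5, with 0 to 3 members called in the later interval. In controls, Gli2 ran from -0.157 to 0.302 and Gas1 from -0.100 to 0.037 for E10.5 against E9.5, and 0 to 2 members were called for E11.5 against E10.5.

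Whether replicate numbers pair mutants with controls was not settled. The correlation of deviations between same-numbered libraries ran from -0.148 to 0.184. The control most correlated with a mutant had the same number for every E9.5 mutant, E10.5 mutant replicates 1 and 2 and E11.5 mutant replicate 2. It had another number for E10.5 mutant replicate 3 and E11.5 mutant replicates 1 and 3. With the replicate block 2 members passed at E10.5 and 3 passed at E11.5, and Ptch1 there had 0.72 (adjusted p = 0.0524). The exact test of Shh at E9.5 gave p = 0.2 on raw CPM without TMM and 0.1 on the other scales tried.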
